A study of Homo sapiens with 6 samples.

Results

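The classical protein tyrosine phosphatases are a phosphotyrosine-specific family with PTPR and PTPN gene names, described here by a list of 36 human genes, 20 receptor-type (PTPR) and 16 non-receptor (PTPN). A few of them, such as PTPRN, are catalytically inactive relatives. They were picked by gene symbol, and all 36 have a row among the 61860 genes of the count table. The cells were A498, a human line from a kidney carcinoma, sequenced as total RNA in 2 groups of 3 libraries. PTPRZ_Si is the knockdown of PTPRZ1, which the labels give as made by siRNA, and PTPRZ_nc is its control, which the labels give as made by plasmid. Both groups carry the same further entry of transfection and infection and were grown in MEM with fetal bovine serum. No source used here gives the siRNA or plasmid sequences, and a difference between siRNA and plasmid delivery cannot be told apart from the knockdown. Whether each library is its own culture is not stated, so the p-values rest on the spread among the 6 libraries, and that spread may be technical.

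Protein tyrosine phosphatases remove the phosphate that tyrosine kinases place on proteins, and the classical members share a related catalytic domain, which in the active enzymes works through a cysteine. The receptor-type enzymes span the plasma membrane, and their outer parts resemble cell adhesion molecules or bind matrix proteoglycans. The non-receptor enzymes are sorted to the endoplasmic reticulum, the cytoskeleton, endosomes or activated receptors by the domains beside the catalytic one. In epithelial cells the family is known for setting the strength of growth factor receptor, SRC and cell junction signals. PTPRZ1, the target of the knockdown, is a receptor-type enzyme with a carbonic anhydrase-like outer domain, best known in glia and neural progenitors, and PTPRG is its closest relative.

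Total counts per library lay between 14407846 and 21469746 in PTPRZ_Si and between 13726908 and 18609477 in PTPRZ_nc. Members were tested within a fit of 15476 genes by edgeR's quasi-likelihood test, and those with an adjusted p up to 0.05 count as called. Of all tested genes 4243 were called, which is 27.4%, with 14.0% higher and 13.4% lower in PTPRZ_Si, and the median change of all genes was 0.00 on the log2 scale. Markers of renal carcinoma epithelium were present, with 9 of 10 at 1 TPM or more, a level per exon length (EPCAM averaged 0.34 TPM over the 6 libraries). Their summed level was 1910 to 1980 TPM in PTPRZ_Si and 1620 to 1680 TPM in PTPRZ_nc, and 6 were higher and 1 lower. Among leukocyte markers CD3E, CD3D, MS4A1 and TYROBP were at 0 in every library (4 of 10), and the sum was 4.79 to 5.7 TPM in PTPRZ_Si and 4.94 to 5.36 TPM in PTPRZ_nc. CDH5 of the endothelium was at 0 (1 of 7; sum 131 to 140 TPM in PTPRZ_Si and 132 to 159 TPM in PTPRZ_nc), as was ELAVL4 of neurons (1 of 7; 9.39 to 11 TPM in PTPRZ_Si and 9.81 to 11.9 TPM in PTPRZ_nc). The podocyte markers summed to 293 to 314 TPM in PTPRZ_Si and 316 to 363 TPM in PTPRZ_nc, and of the fibroblast markers LUM was at 0 (1 of 6; 9.69 to 10.8 TPM in PTPRZ_Si and 14.2 to 18.8 TPM in PTPRZ_nc). Other markers of these lists were present. At 1 TPM or more stood 2 leukocyte, 1 endothelial, 2 neuronal, 2 podocyte and 1 fibroblast markers, so the endothelial sum came mostly from 1 gene. The called podocyte markers were SYNPO and PODXL and the called fibroblast marker was COL1A1, all lower in PTPRZ_Si, and the part of any marker in the results on the phosphatases was not tested. In bulk RNA, fewer cells of a type and less RNA per cell cannot be told apart.

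PTPRZ1 (ENSG00000106278), on the plus strand of GRCh38 chromosome 7 between 121873089 and 122062036, was counted 0 times in all 3 PTPRZ_Si libraries and 0 times in all 3 PTPRZ_nc libraries. Taking 3 counts as the limit for a count of 0, the summed libraries allow up to 0.0527 CPM (counts scaled by library size) in PTPRZ_Si and up to 0.0607 CPM in PTPRZ_nc, for counting error only. The knockdown thus could not be checked on its target in these counts. PTPRC, the leukocyte phosphatase CD45, and PTPN5, the brain enzyme STEP, were also at 0 in all 6 libraries. By the counting program's default, read pairs with several placements are left out, so a count of 0 does not by itself show that a gene is silent. PTPRZ1, PTPRC and PTPN5 share 0 exon bases with other annotated genes, and whether read pairs of these genes were left out was not tested.

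To compare levels between genes, counts were divided by exon length and rescaled to the same total in each library (TPM). On this scale 27 of the 36 members averaged at least 1 TPM over the 6 libraries, 14 of 20 receptor-type and 13 of 16 non-receptor genes, and 29 had a count in every library. The median over all 36 members was 21.5 TPM, with 11.4 TPM over the receptor-type and 32.9 TPM over the non-receptor genes. These medians include the 8 members that were too low to be tested. The median over all tested genes, 19.7 TPM, leaves such low genes out, so it cannot be set directly against the member medians. PTPRS, PTPRF, PTPN11, PTPN1 and PTPN12 were the 5 most abundant and together held 50% of the TPM of the family.

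**Figure D1:**
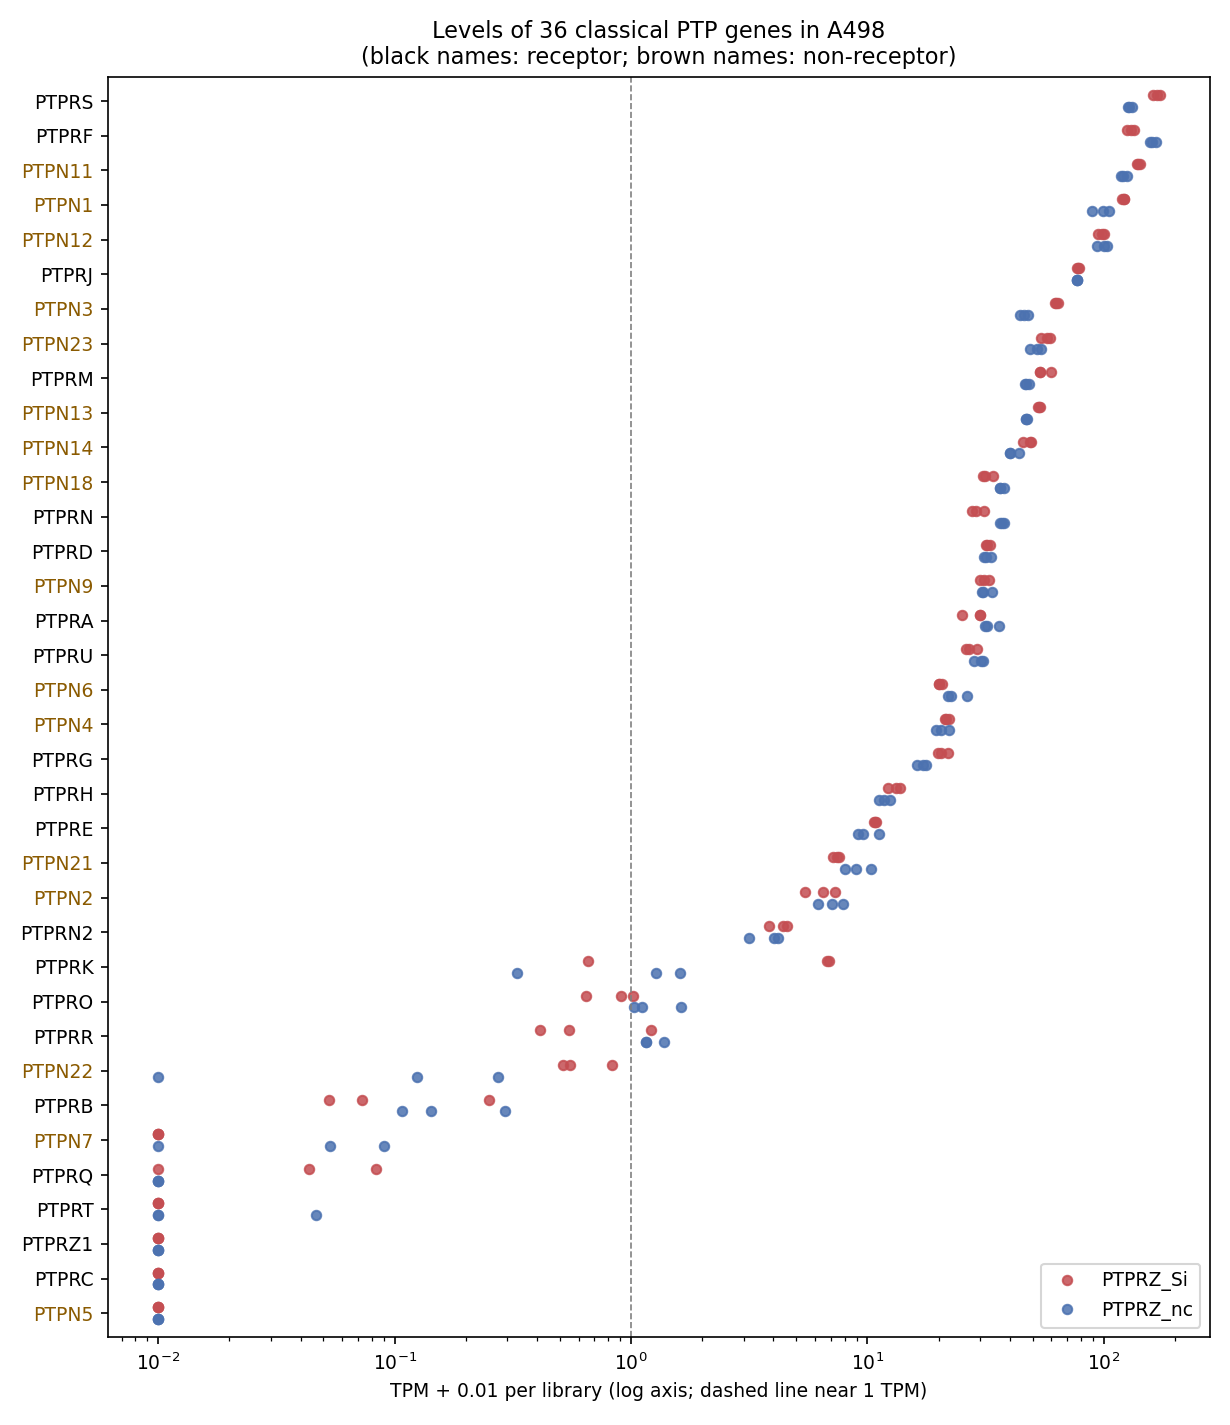
Level of each of the 36 classical phosphatase genes in each library, as TPM plus 0.01 on a log axis, with PTPRZ_Si points drawn above PTPRZ_nc points for each gene and genes ordered by mean level. PTPRS and PTPRF lead at 147.4 and 145.6 TPM over the 6 libraries, the spread between libraries is small for most genes, and PTPRK is the gene whose libraries lie furthest apart among those above 1 TPM.

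PTPRS (RPTPσ) and PTPRF (LAR), receptors of the same type that bind heparan sulfate proteoglycans and liprins, had nearly the same mean level over all libraries and opposite changes. PTPRS had 167.2, 160.6 and 172.2 TPM in PTPRZ_Si libraries 1, 2 and 3, against 131.0, 125.9 and 127.4 TPM in PTPRZ_nc libraries 1, 2 and 3. PTPRF had 130.0, 125.8 and 134.6 TPM in PTPRZ_Si, against 166.5, 160.2 and 156.2 TPM in PTPRZ_nc. All PTPRZ_Si libraries were above all PTPRZ_nc libraries for PTPRS and below them for PTPRF. The ratio of PTPRS to PTPRF was therefore 1.29, 1.28 and 1.28 in PTPRZ_Si libraries, against 0.787, 0.786 and 0.816 in PTPRZ_nc libraries. PTPRS ranked 1 in PTPRZ_Si and 2 in PTPRZ_nc, and PTPRF ranked 3 in PTPRZ_Si and 1 in PTPRZ_nc.

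Next in level stood PTPN11 (SHP2), which couples growth factor receptors to RAS signalling. It had 138.4, 142.4 and 139.1 TPM in PTPRZ_Si, against 118.5, 125.2 and 120.0 TPM in PTPRZ_nc. PTPN1 (PTP1B), the endoplasmic reticulum enzyme that acts on the insulin receptor, had 119.5, 121.2 and 121.3 TPM in PTPRZ_Si, against 99.22, 88.94 and 105.0 TPM in PTPRZ_nc. For both genes the groups did not overlap. PTPN12 (PTP-PEST), which acts on the focal adhesion scaffold BCAR1, had 99.98, 98.11 and 94.04 TPM in PTPRZ_Si, against 99.64, 93.87 and 102.9 TPM in PTPRZ_nc, and its groups overlapped.

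Close relatives differed widely in level. PTPN1 exceeded its relative PTPN2 (TC-PTP), which acts on JAK and STAT proteins, 22.0-, 16.7- and 18.8-fold in TPM in PTPRZ_Si libraries and 12.6-, 14.4- and 14.9-fold in PTPRZ_nc libraries. PTPN11 exceeded PTPN6 (SHP1), the form typical of blood cells, 6.87-, 7.11- and 6.73-fold in PTPRZ_Si and 4.51-, 5.57- and 5.5-fold in PTPRZ_nc. PTPN6 was nonetheless present, at 20.28 ± 0.345 TPM in PTPRZ_Si and 23.51 ± 2.4 TPM in PTPRZ_nc (SD, n = 3 each). Below the top 5, mean levels over the 6 libraries ran from 77.2 TPM for PTPRJ (DEP-1), a receptor of the fibronectin repeat type, down to 1.05 TPM for PTPRO among members above 1 TPM. Of the 26 neighbouring pairs in this order, 21 had overlapping ranges over the 6 libraries, so the order of most neighbours is not fixed beyond their spread. The exon lengths come from another annotation release than the counts, so levels between genes are approximate. They also depend on the length used. PTPN1 and PTPN2 averaged 109.2 and 6.709 TPM over the 6 libraries by exon length, against 78.18 and 11.98 TPM by the longest transcript's length. PTPN11 and PTPN6 averaged 130.6 and 21.9 TPM by exon length, against 106.8 and 32.29 TPM by the longest transcript's length. The folds between these relatives were thus smaller by the longest transcript's length, a setting added after seeing the data. The order of the 5 most abundant members also depended on the length. By the longest transcript's length PTPRF averaged 143.3 TPM and PTPRS 141.1 TPM, and PTPN12, at 113.4 TPM, stood above PTPN11 and PTPN1.

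A further 6 members were below 1 TPM without being at 0. PTPRR, a receptor-type enzyme that binds ERK kinases, had 0.7123 ± 0.426 TPM in PTPRZ_Si and 1.223 ± 0.129 TPM in PTPRZ_nc (SD, n = 3 each). PTPN22, known from lymphocytes, had 8, 11 and 18 counts in PTPRZ_Si and 2, 0 and 5 counts in PTPRZ_nc, too few to pass the count filter. In edgeR without a filter PTPN22 was called higher. PTPRB, the endothelial VE-PTP, had 3, 3 and 17 counts in PTPRZ_Si and 16, 6 and 6 counts in PTPRZ_nc. PTPN7, PTPRQ and PTPRT had at most 3 counts in any library. With PTPRZ1, PTPRC and PTPN5, the low members other than PTPRR made up the 8 genes that did not pass the count filter.

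Of the 28 members that passed the filter, 14 were called, 10 higher and 4 lower in PTPRZ_Si. That is 50% of those tested, beside 27.4% of all tested genes. In a test limited to means from 5 CPM upward, 14 of 25 members were called, beside 37.1% of genes. Receptor-type genes gave, in the test of 15476 genes, 6 calls in 15 tested (40.0%), 4 higher and 2 lower. Non-receptor genes gave 8 in 13 (61.5%), 6 higher and 2 lower. Without PTPRZ_Si library 1 or 2, and likewise with DESeq2, 5 non-receptor genes were called, all higher. Lower members in all numbered 2 without PTPRZ_Si library 1 or 2, without PTPRZ_nc library 1 and with DESeq2. Groups did not overlap for 17 of 28 members (60.7%), beside 40.8% of all tested genes. The median log2 fold change was 0.06 over the members, 0.03 over the receptor-type and 0.08 over the non-receptor genes. Taken without sign, the median change was 0.206 on the log2 scale over the members, 0.256 over the receptor-type and 0.196 over the non-receptor genes, beside 0.176 over all tested genes. No test was made of whether the family differs from other genes.

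**Figure D2:**
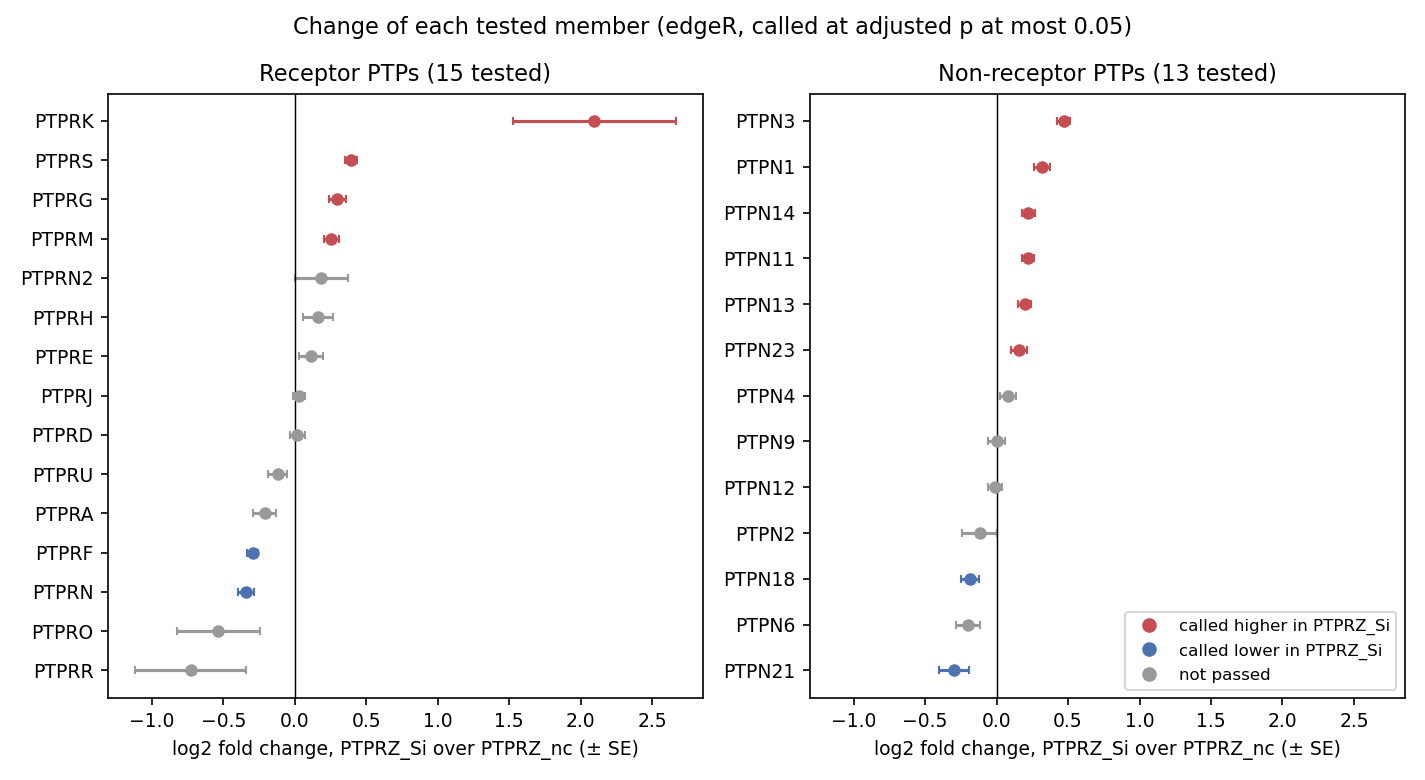
Log2 fold change of PTPRZ_Si over PTPRZ_nc with its standard error for the 28 tested members, receptor-type and non-receptor genes in separate panels, called genes marked by colour. PTPRK lies far to the right at 2.10 with a wide error, and the other called genes lie between -0.34 and 0.47.

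Among the receptor-type genes, the LAR type held the pair of opposite changes. PTPRS (ENSG00000105426, chromosome 19 from 5158495 to 5340803, minus strand) rose 1.31-fold, by 0.39 ± 0.0404 on the log2 scale (SE; edgeR, adjusted p = 1.51e-06). PTPRF (ENSG00000142949, chromosome 1 from 43525187 to 43623666, plus strand) fell by 0.29 on the log2 scale (SE 0.0411, adjusted p = 3.98e-05). On the CPM scale, corrected by TMM, PTPRS had 326.0, 318.1 and 335.1 CPM in PTPRZ_Si and 255.3, 245.4 and 245.7 CPM in PTPRZ_nc. PTPRF had 317.0, 311.5 and 327.6 CPM in PTPRZ_Si and 405.7, 390.5 and 376.8 CPM in PTPRZ_nc. PTPRD, the remaining LAR-type gene and known from neurons, did not pass (log2 fold change 0.02, adjusted p = 0.835), at 32.17 ± 0.634 TPM in PTPRZ_Si and 32.06 ± 1.13 TPM in PTPRZ_nc (SD, n = 3 each).

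PTPRG (ENSG00000144724, chromosome 3 from 61561569 to 62297613, plus strand), the relative of PTPRZ1 that binds contactins, rose. It had 67.77, 67.13 and 72.84 CPM in PTPRZ_Si, against 53.88, 56.98 and 58.2 CPM in PTPRZ_nc, with no overlap (log2 fold change 0.30, SE 0.0583, adjusted p = 0.000958). An annotated antisense gene, PTPRG-AS1, shares 8.25% of the exon bases of PTPRG, and the counting was not set to use strand. PTPRG-AS1 itself averaged 0.4954 CPM in PTPRZ_Si and 0.2973 CPM in PTPRZ_nc.

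The MAM type, whose members bind their own kind on neighbouring cells, gave 2 calls in 3 tested, both higher, beside 27.4% of all tested genes called. PTPRM, found at cadherin junctions, had 121.5, 122.6 and 134.5 CPM in PTPRZ_Si and 108.2, 105.6 and 103.5 CPM in PTPRZ_nc (log2 fold change 0.26, SE 0.0512, adjusted p = 0.00114). PTPRK (ENSG00000152894, chromosome 6 from 127968779 to 128520674, minus strand), also a junction receptor, had 202, 28 and 296 counts in PTPRZ_Si libraries 1, 2 and 3, against 56, 9 and 48 counts in PTPRZ_nc libraries 1, 2 and 3. On the scaled level this is 14.06, 1.342 and 13.82 CPM in PTPRZ_Si and 3.265, 0.6566 and 2.556 CPM in PTPRZ_nc. Library 2 was the low one in both groups, and PTPRZ_Si library 2 lay below 2 of the PTPRZ_nc libraries, so the groups overlapped. The log2 fold change of PTPRK was 2.10 (SE 0.57, adjusted p = 0.0108), the largest and least precise of the 14. Its call was lost without PTPRZ_Si library 1 (1.76, adjusted p = 0.0597), without PTPRZ_Si library 3 (1.73, adjusted p = 0.0733), with DESeq2 (adjusted p = 0.124) and with limma-voom (adjusted p = 0.222). Without library 2 of both groups, a comparison added after seeing the data, the value was 2.26 (adjusted p = 2.12e-13). PTPRU did not pass (-0.12, adjusted p = 0.196).

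PTPRN (IA-2), a secretory granule protein without catalytic activity on phosphotyrosine, fell. It had 58.38, 52.76 and 53.88 CPM in PTPRZ_Si, against 68.57, 69.68 and 70.29 CPM in PTPRZ_nc, with no overlap (log2 fold change -0.34, SE 0.0573, adjusted p = 0.000259). Its relative PTPRN2 did not pass (0.19, adjusted p = 0.503). None of the tested genes of the fibronectin repeat type (PTPRJ, PTPRO, PTPRH) or of the short ectodomain type (PTPRA, PTPRE) was called. This held for edgeR with the settings used throughout, for DESeq2 and for limma-voom. PTPRB and PTPRQ, also of the fibronectin repeat type, did not pass the count filter. In edgeR PTPRO was at -0.53 (adjusted p = 0.197), PTPRH at 0.16 (adjusted p = 0.285) and PTPRE at 0.12 (adjusted p = 0.34). At an unadjusted p of 0.05 PTPRA alone among the tested genes of these types was below the limit.

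PTPRJ gave non-overlapping groups at a very small difference, with 171.5, 171.1 and 170.4 CPM in PTPRZ_Si and 168.2, 167.7 and 166.1 CPM in PTPRZ_nc, and did not pass (0.03, adjusted p = 0.631). PTPRA, which activates SRC by removing its inhibitory phosphate, had 25.47, 30.81 and 30.26 CPM in PTPRZ_Si and 31.9, 32.47 and 36.21 CPM in PTPRZ_nc (-0.21, adjusted p = 0.0713). It passed in edgeR without a filter (-0.22, adjusted p = 0.0497), without PTPRZ_nc library 2 (-0.23, adjusted p = 0.0444) and without library 2 of both groups (-0.28, adjusted p = 0.0191), and 12.49% of its exon bases are shared with VPS16 on the same strand. PTPRR (-0.73, adjusted p = 0.185) passed only without PTPRZ_Si library 3 (-1.37, adjusted p = 0.0319).

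**Figure D3:**
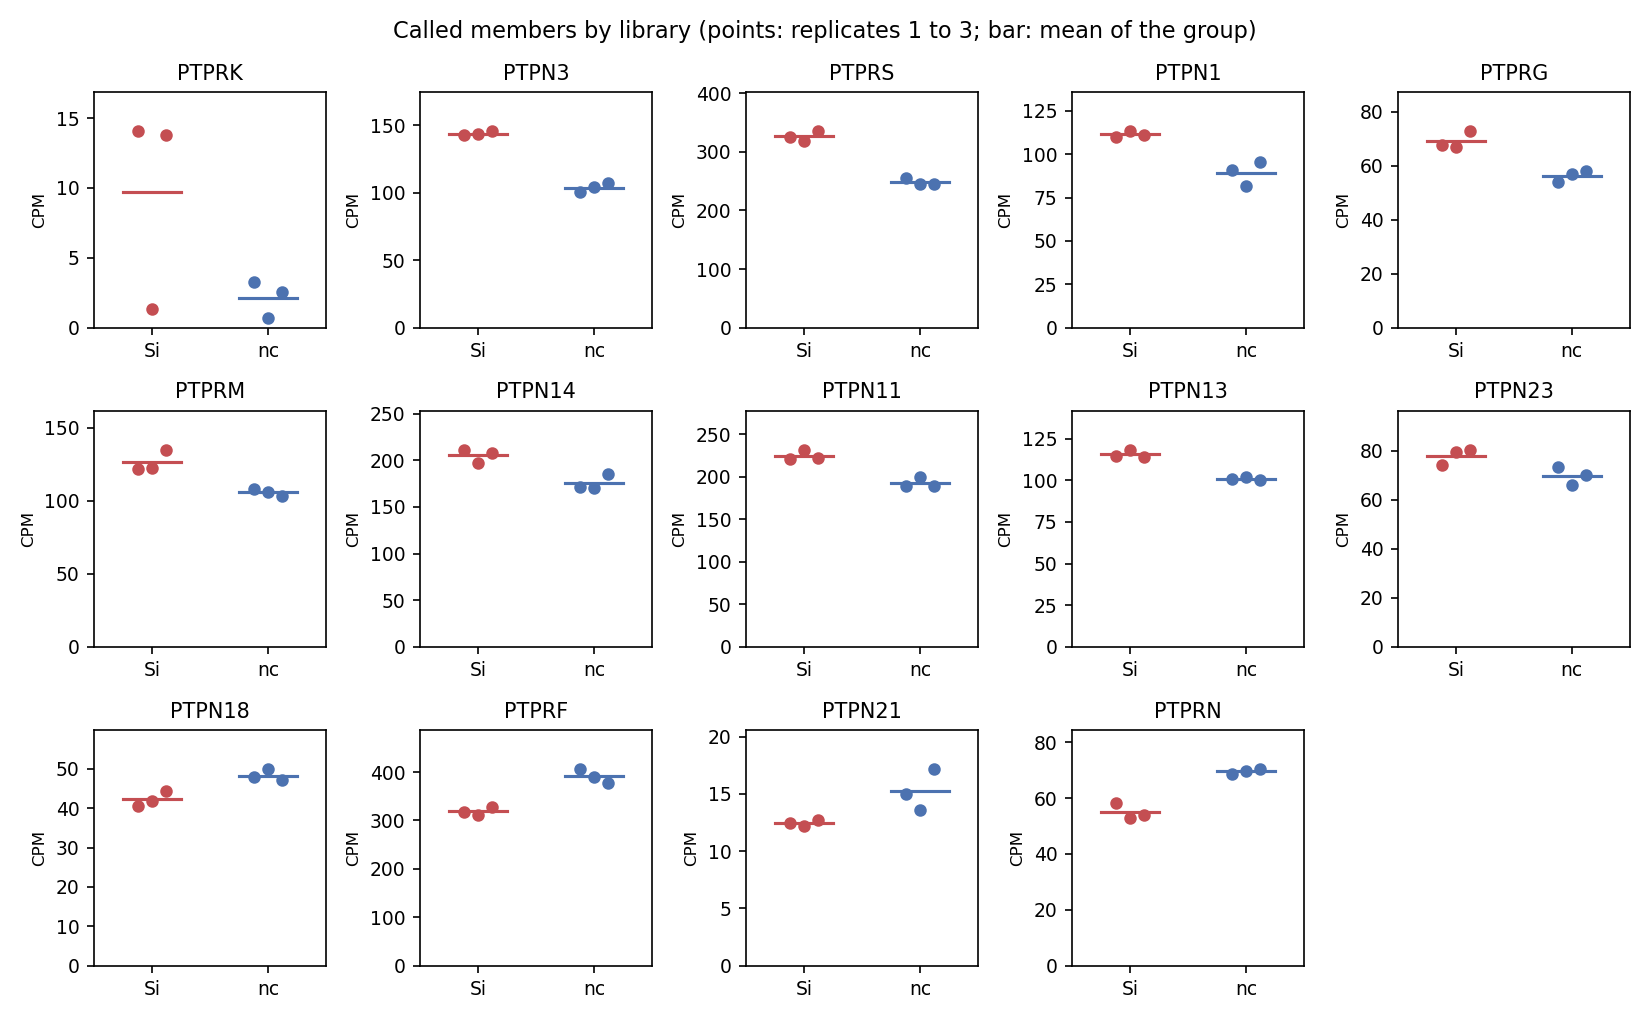
CPM in each library for the 14 called members, PTPRZ_Si left of PTPRZ_nc in each panel, with group means as lines. Groups are apart in 13 panels, and in the PTPRK panel library 2 of each group lies far below the other libraries of that group.

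Among the non-receptor genes the FERM type, enzymes held at the cortical cytoskeleton, gave 4 calls in 5 tested, 3 higher and 1 lower, beside 27.4% of all tested genes called. PTPN3 (PTPH1; ENSG00000070159, chromosome 9 from 109375466 to 109498313, minus strand) had the smallest adjusted p of the family. It had 142.4, 143.6 and 145.5 CPM in PTPRZ_Si, against 100.4, 104.0 and 107.1 CPM in PTPRZ_nc (log2 fold change 0.47, SE 0.0461, adjusted p = 8.38e-07), and its rank by TPM was 7 in PTPRZ_Si and 10 in PTPRZ_nc. PTPN14, which binds the transcriptional coactivator YAP, had 210.8, 196.7 and 208.1 CPM in PTPRZ_Si and 171.3, 170.4 and 185.2 CPM in PTPRZ_nc (0.22, SE 0.0472, adjusted p = 0.00186). Of the exon bases of PTPN14, 7.27% are shared with ENSG00000228470 on the same strand and KRT18P12 on the opposite strand. PTPN13, a large scaffold with PDZ domains, had 114.6, 118.1 and 114.1 CPM in PTPRZ_Si and 100.8, 102.1 and 99.95 CPM in PTPRZ_nc (0.20, SE 0.0461, adjusted p = 0.00406). All of these were apart between groups.

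PTPN21, the FERM-type gene that moved the other way, had 12.46, 12.22 and 12.7 CPM in PTPRZ_Si and 14.99, 13.57 and 17.15 CPM in PTPRZ_nc (-0.30, SE 0.106, adjusted p = 0.0467). That call did not hold without PTPRZ_Si library 1, 2 or 3 or without PTPRZ_nc library 1 or 3 (adjusted p of 0.085 to 0.216 in those 5 comparisons), nor with DESeq2 (adjusted p = 0.123). PTPN4, the remaining FERM-type gene, did not pass (0.08, adjusted p = 0.348).

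PTPN11 and PTPN1, described above by level, rose. PTPN1 had 109.9, 113.3 and 111.4 CPM in PTPRZ_Si and 91.2, 81.79 and 95.53 CPM in PTPRZ_nc (0.31, SE 0.056, adjusted p = 0.00044). PTPN11 had 221.3, 231.3 and 222.0 CPM in PTPRZ_Si and 189.3, 200.1 and 189.8 CPM in PTPRZ_nc (0.22, SE 0.043, adjusted p = 0.000937). Their relatives did not pass, with PTPN2 at -0.12 (adjusted p = 0.527) and PTPN6 at -0.20 (adjusted p = 0.0914). PTPN6 had 22.96, 23.19 and 23.53 CPM in PTPRZ_Si and 29.91, 25.61 and 24.6 CPM in PTPRZ_nc, and passed without PTPRZ_nc library 3 (-0.26, adjusted p = 0.0448). Processed pseudogenes of PTPN11 and PTPN2 had at most 6 counts in any library, and reads shared between a gene and such copies would be left out by the counting.

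PTPN23 (HD-PTP), a BRO1-domain protein of endosomal sorting, had 74.04, 79.59 and 80.22 CPM in PTPRZ_Si and 73.53, 66.17 and 69.97 CPM in PTPRZ_nc (0.16, SE 0.0569, adjusted p = 0.048). Its groups were apart by a narrow margin. PTPN18, a PEST-type enzyme that acts on ERBB2, had 40.5, 41.93 and 44.45 CPM in PTPRZ_Si and 47.82, 49.9 and 47.18 CPM in PTPRZ_nc (-0.19, SE 0.0634, adjusted p = 0.0363). Both values lay close to the limit for a call. PTPN23 lost its call without PTPRZ_Si library 1, 2 or 3 or PTPRZ_nc library 2 or 3, at log2 fold changes of 0.12 to 0.19 and an adjusted p of up to 0.186. PTPN18 lost its call without PTPRZ_Si library 1 or 2 or PTPRZ_nc library 1 or 2, at log2 fold changes of -0.19 to -0.16 and an adjusted p of up to 0.132. DESeq2 called neither (adjusted p = 0.0904 for PTPN23 and 0.0721 for PTPN18). PTPN12 at -0.01 (adjusted p = 0.909) and PTPN9, a Sec14-domain enzyme of secretory vesicles, at 0.00 (adjusted p = 0.997) did not pass.

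Summed over all receptor-type genes, the level was 603.3, 582.4 and 621.0 TPM in PTPRZ_Si and 600.2, 584.3 and 589.3 TPM in PTPRZ_nc, with overlap. The non-receptor genes summed to 694.2, 700.7 and 700.7 TPM in PTPRZ_Si and 632.8, 617.2 and 646.7 TPM in PTPRZ_nc, with every PTPRZ_Si library higher. Receptor-type genes made up 46.3% of the family's TPM in PTPRZ_Si and 48.3% in PTPRZ_nc. These sums were not tested, since the members were chosen with results of these data known.

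**Figure D4:**
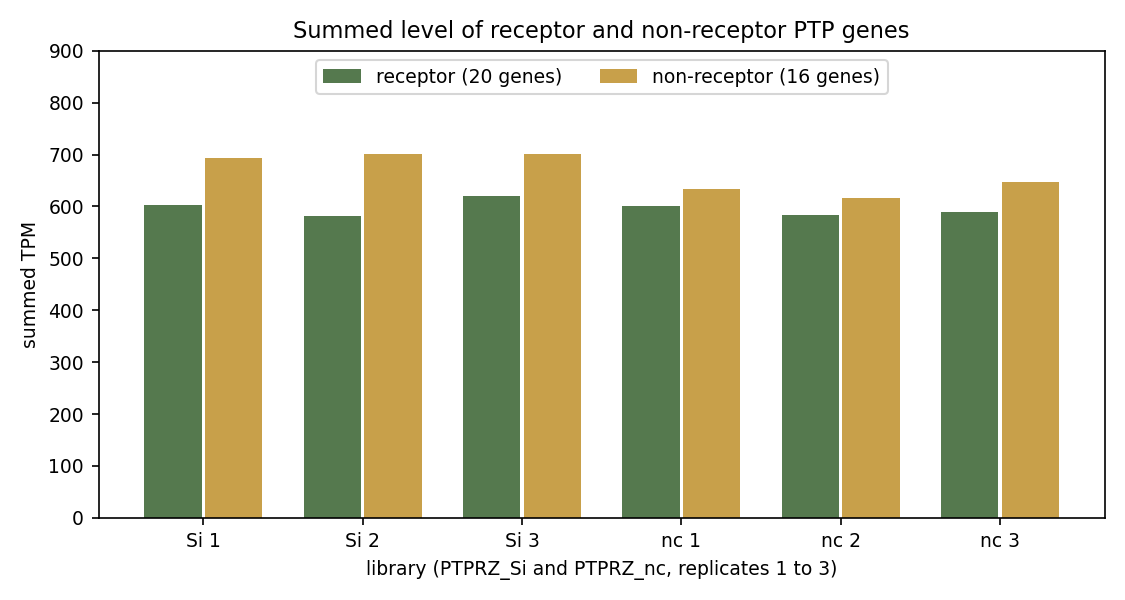
Summed TPM of the 20 receptor-type and the 16 non-receptor genes in each library, as bars from 0, PTPRZ_Si left of PTPRZ_nc. The non-receptor sums average 698.5 ± 3.75 TPM in PTPRZ_Si and 632.2 ± 14.8 TPM in PTPRZ_nc and the receptor sums 602.2 ± 19.3 and 591.3 ± 8.13 TPM in the same order (SD, n = 3 each).

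The genes that work with or against these enzymes were counted from lists of related proteins, each beside the 27.4% of all tested genes that were called. Of 12 receptor tyrosine kinases that classical phosphatases act on, 8 were tested, 4 were lower and 2 higher in PTPRZ_Si (75.0%; median log2 fold change -0.21). AXL, a kinase receptor for GAS6, had 196.1, 186.0 and 200.3 CPM in PTPRZ_Si and 340.3, 342.8 and 344.1 CPM in PTPRZ_nc (-0.82, adjusted p = 3.71e-10). EGFR, the epidermal growth factor receptor, changed by -0.26 (adjusted p = 6.85e-05), EPHA2, an ephrin receptor, by -0.23 (adjusted p = 0.000814) and ERBB2 by -0.22 (adjusted p = 0.0102). The ERBB2 call was lost without PTPRZ_Si library 2 (adjusted p = 0.063). Of the 2 higher kinases, MET and FGFR1, neither was called without PTPRZ_Si library 1 or without PTPRZ_nc library 1, which left 4 calls.

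Non-receptor tyrosine kinases gave 6 calls in 23 tested of 32, 3 higher and 3 lower (26.1%; median -0.02). SRC, a substrate of several family members, was higher (0.40, adjusted p = 2.7e-07), as was TXK (0.71, adjusted p = 0.0144), a kinase known from T cells. ABL1 was lower (-0.34, adjusted p = 8.7e-06), and so was CSK (-0.25, adjusted p = 0.00326), which adds the inhibitory phosphate of SRC. The TXK call was lost without PTPRZ_Si library 2 or 3 or PTPRZ_nc library 3, with an adjusted p of up to 0.071. Without PTPRZ_Si library 3 this list had 3 calls.

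The 35 ligands and cytoplasmic partners of receptor-type phosphatases had 28 tested members, 5 higher and 5 lower (35.7%; median -0.02), with 3 higher when PTPRZ_Si library 1, PTPRZ_Si library 3 or PTPRZ_nc library 3 was left out. IL1RAP, a subunit of the interleukin-1 receptor that also binds PTPRD at synapses, had 16.07, 16.53 and 17.37 CPM in PTPRZ_Si and 32.07, 33.27 and 37.11 CPM in PTPRZ_nc (-1.03, adjusted p = 7.59e-08). The heparan sulfate carriers SDC4 (-0.52, adjusted p = 1.45e-06) and SDC1 (-0.28, adjusted p = 1.26e-05) were lower as well. SLITRK4, a synaptic ligand of LAR-type receptors, was higher (0.78, adjusted p = 2.55e-06). Adaptors and docking proteins gave 4 calls in 20 tested of 21, 2 higher and 2 lower (20%; median 0.04). The docking proteins GAB1 (0.32, adjusted p = 0.00639) and FRS2 (0.28, adjusted p = 0.0134) were higher, and both recruit PTPN11. IRS2, a docking protein of the insulin receptor, was lower (-0.24, adjusted p = 0.000268), as was the catenin CTNND1 (-0.33, adjusted p = 0.0488). The FRS2 call was lost without PTPRZ_Si library 1 (adjusted p = 0.0649), when the list had 2 calls, and that of CTNND1 without PTPRZ_Si library 1 or 2 or PTPRZ_nc library 2 or 3 (adjusted p of up to 0.211), without library 2 of both groups (adjusted p = 0.26), with DESeq2 (adjusted p = 0.119), without a filter (adjusted p = 0.054) and at a mean from 5 CPM upward (adjusted p = 0.0521).

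The other phosphatases of the same superfamily, which act on lipids, on serine and threonine as well, or on other substrates, gave 15 calls in 40 tested of 44, 6 higher and 9 lower (37.5%; median -0.07). SSH1, which activates cofilin, was higher (0.53, adjusted p = 2.7e-07), as was DUSP3 (0.26, adjusted p = 0.000506), a small dual-specificity phosphatase. CDC25A, which activates cyclin-dependent kinases, was lower (-0.73, adjusted p = 0.000148), as was STYXL1 (-0.49, adjusted p = 0.000728), a pseudophosphatase. Without PTPRZ_Si library 2 this list had 9 calls.

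Promoter sequences of 31 members were in a RefSeq table (GRCh38.p14), each covering 250 bases before to 50 bases after the start that the table gives. That start was over 1000 bases from the GENCODE 29 gene start for 6 of the 31 members, PTPRF among them, whose window lies 5696 bases inside the GENCODE gene. They are shown for the targeted gene PTPRZ1, for its relative PTPRG and for the oppositely changed pair PTPRS and PTPRF. EGR1, an immediate-early transcription factor, had a much lower mRNA level in PTPRZ_Si, with 0.9046, 0.6708 and 0.8872 CPM in PTPRZ_Si and 12.07, 11.67 and 14.32 CPM in PTPRZ_nc (log2 fold change -3.96, SE 0.191, adjusted p = 2.43e-10), and its letters were searched for that reason, after its values were seen. The letters were GCGTGGGCG or GCGGGGGCG for EGR1, GGGCGG for SP1 and TGANTCA for AP-1, on both strands, and the EGR1 and SP1 letters can overlap. Capitals below mark EGR1 and SP1 letters on either strand.
PTPRZ1 (chr7:121872911-121873210, plus strand): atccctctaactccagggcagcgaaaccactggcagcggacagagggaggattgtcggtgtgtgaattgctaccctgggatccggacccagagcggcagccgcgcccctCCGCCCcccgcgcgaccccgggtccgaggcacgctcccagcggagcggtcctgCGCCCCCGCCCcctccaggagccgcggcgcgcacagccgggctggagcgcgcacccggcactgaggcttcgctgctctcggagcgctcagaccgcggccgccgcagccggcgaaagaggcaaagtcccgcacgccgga
PTPRG (chr3:61561321-61561620, plus strand): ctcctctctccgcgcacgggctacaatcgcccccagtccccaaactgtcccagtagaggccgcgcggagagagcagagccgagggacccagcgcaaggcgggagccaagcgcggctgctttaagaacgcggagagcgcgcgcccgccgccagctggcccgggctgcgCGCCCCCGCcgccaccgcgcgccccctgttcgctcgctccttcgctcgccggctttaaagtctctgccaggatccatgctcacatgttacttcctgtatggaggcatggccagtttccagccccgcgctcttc
PTPRS (chr19:5340763-5341062, minus strand): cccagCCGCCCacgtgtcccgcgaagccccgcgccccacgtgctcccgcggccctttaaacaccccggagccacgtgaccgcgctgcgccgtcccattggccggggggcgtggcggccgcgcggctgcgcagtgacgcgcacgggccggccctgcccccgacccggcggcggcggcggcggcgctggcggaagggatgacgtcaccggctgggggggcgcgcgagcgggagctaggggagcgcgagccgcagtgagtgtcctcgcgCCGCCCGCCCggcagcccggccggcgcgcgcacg
PTPRF (chr1:43530633-43530932, plus strand): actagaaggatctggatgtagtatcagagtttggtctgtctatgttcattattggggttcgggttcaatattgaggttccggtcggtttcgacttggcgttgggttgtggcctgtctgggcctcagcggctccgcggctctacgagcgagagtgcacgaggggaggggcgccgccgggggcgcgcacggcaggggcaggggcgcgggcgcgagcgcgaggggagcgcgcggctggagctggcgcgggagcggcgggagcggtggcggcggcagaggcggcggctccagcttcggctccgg

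The EGR1 letters occurred in 4 of 31 member windows (12.9%), those of PTPRZ1, PTPRG, PTPRE and PTPRT, beside 5.7% of 27305 windows of the table. In the PTPRZ1 window the EGR1 match overlaps an SP1 match, and a second SP1 match stands apart. Of the members with EGR1 letters only PTPRG was called, and PTPRZ1 and PTPRT were too low to be tested. SP1 letters occurred in 19 of 31 windows (61.3%), beside 44.6% of the table. By call, they occurred in 7 of 9 higher, 2 of 4 lower, 7 of 12 not passed and 3 of 6 untested members with a window. The member windows had a median GC content of 68.7%, beside 58.3% over the table, and the part of GC content in these shares was not tested. PTPRS had 3 SP1 matches, and the PTPRF window shown held none of either. AP-1 letters occurred in 1 of 31 windows, that of PTPN9, beside 7.76% of the table. A match describes these letters and is not evidence of binding.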

How the data were processed

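RNA of A498 cells was measured in 6 libraries, with groups and replicate numbers from the labels. The deposited values are raw counts of read pairs for each gene, which the authors made, per the file headers, with featureCounts 2.0.1 and Ensembl release 107 of GRCh38 without a strand option (the build is hg38 per the submitters' processing notes). No source used here names the aligner's version. CPM (counts over TMM-scaled library size) and TPM were computed here. The table holds no exon lengths, so TPM used GENCODE 29 lengths, present for 58308 of 61860 genes. Tests used edgeR 4.0.16 in R 4.3.3 (filterByExpr, minimum count 10; TMM; glmQLFTest, 2-sided, Benjamini-Hochberg over 15476 genes), with DESeq2 1.42.0 and limma 3.58.1 as alternatives. No library was a copy of another in its group (chi-square over its degrees of freedom 2.19 to 6.23). The members and lists were chosen with earlier results of these data known. Named were all members, with each library's values for PTPRZ1, called members and the 5 most abundant, and of each list at most 4 called genes with the smallest p; other names, such as markers and members that did not pass, complete an account. Intervals and limits cover counting error only. Some marker results are not reported here.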

Additional observations from a re-analysis of the deposited data

How the results depend on the processing

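The 14 called members were tested again with RLE size factors, no filter, a mean of at least 5 CPM, DESeq2, limma-voom, the replicate number as a block, each library left out in turn, and, added after seeing the data, library 2 of both groups left out. Of these, 10 passed with the same sign each time they were tested, and PTPRK, PTPN18, PTPN21 and PTPN23 lost the call at least once. PTPN21 and PTPN23 lost it also without a filter (adjusted p = 0.0601 and 0.0775) and with the block (0.0564 and 0.0663). The number of called members was 10 with DESeq2 and 10 to 13 with one library left out, and that of all genes 3455 with DESeq2 and 3182 to 4425 with one library left out. Non-receptor calls were 5 with DESeq2 and 5 to 7 with one library left out. With one library left out, calls were 9 to 18 among the other phosphatases of the superfamily, 3 to 6 among non-receptor tyrosine kinases, 2 to 4 among adaptors, 4 to 6 among receptor tyrosine kinases and 7 to 10 among ligands and partners. The direction turned only for members at almost no change. PTPRD was -0.0078 to 0.040 with one library left out and -0.024 without library 2 of both groups. PTPN9 was -0.00036 with RLE factors, -0.0069 without a filter, -0.0031 with DESeq2, -0.0030 with the replicate block, and -0.045 to 0.043 with one library left out. PTPN12 was up to 0.018 with one library left out. Same-numbered libraries of the groups deviated together only weakly (r of 0.0271, 0.0333 and 0.0226), so the numbers were not taken as pairs, although each library correlated best with its own number. With the replicate block 13 members and 4101 genes were called, PTPRA among them (-0.22, adjusted p = 0.0477), PTPRK had 2.13 (SE 0.207, adjusted p = 3.97e-07), and CTNND1 was not called (adjusted p = 0.0502). The members at 1 TPM or more were 24 by RPKM, 28 above 0.5 TPM, 24 above 5 TPM, and 28 with the longest transcript's length, a setting added after seeing the data. The cause of these differences was not tested. Low counts left 8 members untested with the count filter. Without a filter 33 members were tested and 14 called. PTPN22 was then called higher and PTPRA lower, while PTPN21 and PTPN23 were not called.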
